A study of Rattus norvegicus with 9 samples.

Results

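The 10 core genes of macroautophagy and its transcriptional control described here were followed in INS-1E cells, an insulin-secreting rat insulinoma line. They are Sqstm1, Map1lc3b, Gabarapl1, Ulk1, Becn1, Atg5, Atg7, Atg9a, Wipi1 and Tfeb. The genes were chosen by name for their place in the pathway, and all 10 were found among the 20645 genes of the authors' table. All cells were treated for 24 h before polyadenylated RNA was sequenced. The BSA group, the control, received fatty acid-free bovine serum albumin. The PA group received palmitic acid, a saturated fatty acid, at 0.5 mM. The PA + C3G group received the same PA together with 50 µM cyanidin-3-O-glucoside, an anthocyanin. No group received C3G without PA. The doses are those of the study's methods, and each group had 3 libraries of this 1 cell line. The study's methods describe replicate samples for each group and biological triplicates for its experiments in general, while the labels only number the replicates. The p-values measure the spread between these libraries.

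Macroautophagy encloses cytoplasm in a double membrane, the autophagosome, and delivers it to the lysosome. ULK1 kinase starts the process, a class III phosphatidylinositol 3-kinase containing beclin 1 marks the membrane with the lipid PI3P, ATG9A vesicles bring lipid, and the conjugation enzymes attach ATG8 proteins such as LC3B and GABARAPL1. Receptors such as p62, the product of Sqstm1, tie cargo to the ATG8 proteins and are themselves degraded, while TFEB, which MTORC1 holds in the cytoplasm when nutrients are plentiful, drives genes for autophagy and lysosomes. In beta cells autophagy is known to remove damaged organelles and insulin granules. Much of the regulation acts on proteins, through phosphorylation, lipidation and degradation, which mRNA levels do not measure.

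The promoters of the 3 genes whose mRNA was higher with PA are shown first, together with that of Atg5, which holds the core letters of the motif that TFEB binds. RefSeq sequence on assembly GRCr8 was at hand for 8 of the 10 genes, with entries for all but Becn1 and Atg9a. Each line gives the 250 bases before the annotated start, read along the gene's own strand. Capitals mark matches, on either strand, to any of 6 searched motifs. The Sqstm1 window is chr10:35037751-35038000 on the minus strand, the Map1lc3b window is chr19:66574345-66574594 on the plus strand, the Gabarapl1 window is chr4:164666082-164666331 on the plus strand, and the Atg5 window is chr20:49380585-49380834 on the plus strand.
Sqstm1: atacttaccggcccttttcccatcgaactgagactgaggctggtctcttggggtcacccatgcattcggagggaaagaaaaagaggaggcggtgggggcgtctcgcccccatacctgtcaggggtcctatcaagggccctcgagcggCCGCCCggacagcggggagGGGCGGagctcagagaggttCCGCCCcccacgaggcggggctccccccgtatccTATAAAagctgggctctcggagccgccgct
Map1lc3b: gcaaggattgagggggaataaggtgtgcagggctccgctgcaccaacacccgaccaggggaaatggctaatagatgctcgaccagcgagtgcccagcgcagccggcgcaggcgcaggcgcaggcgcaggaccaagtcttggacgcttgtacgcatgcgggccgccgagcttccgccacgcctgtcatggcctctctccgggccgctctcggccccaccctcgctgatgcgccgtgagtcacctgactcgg
Gabarapl1: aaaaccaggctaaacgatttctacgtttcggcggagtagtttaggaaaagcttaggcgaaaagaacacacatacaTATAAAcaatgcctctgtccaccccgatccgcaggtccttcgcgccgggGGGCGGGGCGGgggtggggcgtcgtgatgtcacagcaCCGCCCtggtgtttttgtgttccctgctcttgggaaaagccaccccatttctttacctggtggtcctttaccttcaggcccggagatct
Atg5: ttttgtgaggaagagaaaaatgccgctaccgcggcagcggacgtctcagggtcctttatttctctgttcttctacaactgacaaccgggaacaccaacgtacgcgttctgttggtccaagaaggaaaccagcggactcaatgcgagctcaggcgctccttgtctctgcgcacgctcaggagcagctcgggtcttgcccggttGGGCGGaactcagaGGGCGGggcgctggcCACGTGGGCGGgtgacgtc

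The E-box CACGTG, the core of the CLEAR motif of TFEB and its relatives, stood in 1 of the 8 windows, that of Atg5, from base −19 to −14 counted back from the start. It is present in 5.59% of all 33469 RefSeq promoter windows, taken here over the same length. The longer form TCACGTGA, which contains CACGTG, stood in none of the 8 and in 0.657% of all windows. Neither TGACNNNGC, the core of the antioxidant response element, nor TGATGNAA, a C/EBP-ATF element, was present in the 8 windows, against 10.1% and 3.4% of all windows. The remaining 2 motifs were added after the sequences were seen. The TATA box TATAAA lay at −30 to −25 in Sqstm1 and at −175 to −170 in Gabarapl1, and 12.9% of all windows hold it. The GC box GGGCGG was present in 6 of the 8 genes, Sqstm1, Gabarapl1, Atg5, Atg7, Wipi1 and Tfeb, and in 30.5% of all windows. The bases G and C made up 48.0% (Atg7) to 73.6% (Ulk1) of the 8 windows, beside a median of 51.2% over all windows. The part of this composition in the GC box count was not tested. The Atg7 window held the base pair step CG 2 times, against 7 (Tfeb) to 30 (Ulk1) times in the others. Whether the annotated start of Atg7 is the one used in these cells was not tested. In Atg5 one GC box shares its first base, at −14, with the end of the E-box. The Map1lc3b window had no match to any of these letters. A match is a description of the letters only, and no binding was measured here.

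Levels are given as FPKM (fragments per unit of transcript length and of library size, as deposited by the authors), the scale on which different genes can be compared. Differences between groups are log2 fold changes with standard errors (SE) from edgeR's quasi-likelihood test on the estimated counts of all 9 libraries. Calls were made at an adjusted p under 0.05 over 12958 genes, those whose mean FPKM reached 1 or more, and all 10 genes passed this filter. An exact permutation test of 3 libraries against 3 cannot go below p = 0.1, so single genes were not tested that way. Library totals of the estimated counts ran from 45559993 to 66730721, and the 10 genes had between 849 and 78625 counts in each. Pearson's r between libraries, over the tested genes on a log scale, was 0.981 to 0.985 within groups and 0.943 to 0.977 across groups. Of 10 beta cell markers, 9 were in the table and all 9 had a mean FPKM of at least 1. Their summed FPKM was 49796.8 to 50510.1 in the BSA libraries, 22814.7 to 23268.5 in the PA libraries and 47280.2 to 52809.4 in the PA + C3G libraries, led by the insulin genes Ins1 and Ins2. The single markers did not move alike. In the BSA, PA and PA + C3G groups Ins1 averaged 26649.7, 13744.2 and 32002.0 FPKM and Ins2 13778.2, 1870.92 and 7007.66 FPKM. Slc2a2 averaged 510, 103 and 172 FPKM, and Nkx6-1 averaged 50.0, 52.1 and 76.0 FPKM. Of 16 markers of other islet, acinar, ductal, mesenchymal, leukocyte and endothelial cells, 10 were in the table and only Gcg reached 1 FPKM when averaged across all 9 libraries. The sums of these 10 were 10.3 to 32.4, 3.31 to 7.79 and 5.66 to 23.6 FPKM in the BSA, PA and PA + C3G libraries. The acinar gene Cela1, the ductal gene Krt19 and the leukocyte gene Ptprc were each at or near 0 in every group. Other markers were higher. In the BSA, PA and PA + C3G groups the leukocyte gene Cd68 averaged 0.495, 0.482 and 0.428 FPKM. The islet gene Ghrl averaged 0.929, 1.23 and 0.803 FPKM. The part that the change in beta cell markers has in the following results was not tested. In bulk RNA, fewer cells of a kind and less RNA per cell cannot be told apart.

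The 10 genes spanned a wide range of abundance. Sqstm1 was the most abundant in every group, at the 99.1 percentile of tested genes by mean FPKM, followed by Gabarapl1 at the 96.2 percentile. Atg7 was the least abundant, at the 28.4 percentile. In the BSA group the order below Gabarapl1 was Ulk1, Wipi1, Becn1, Tfeb, Atg9a, Map1lc3b, Atg5 and Atg7. Among these neighbours the libraries overlapped for Ulk1 and Wipi1, for Tfeb and Atg9a, and for Atg9a and Map1lc3b. With PA, Map1lc3b moved up from rank 8 to rank 6, level with Becn1, whose libraries it overlapped, and it kept that rank in the PA + C3G group. Wipi1 stood above Ulk1 with a gap between libraries in the PA + C3G group only, while their libraries overlapped in the BSA and PA groups. Atg5 and Atg7 held the last places in every group without overlap.

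**Figure D1:**
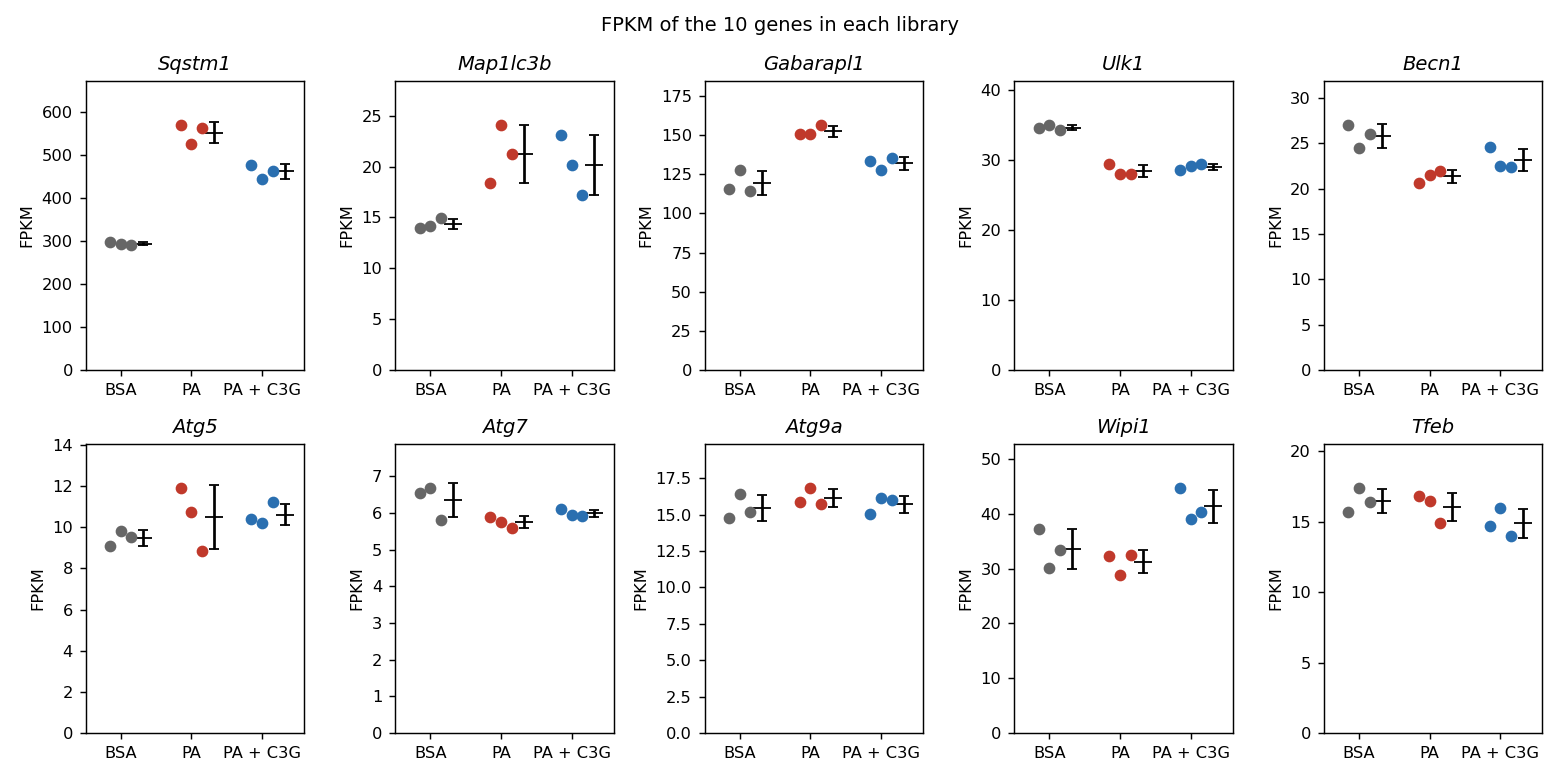
FPKM of each of the 10 genes (y axis, from 0) in the 3 BSA, 3 PA and 3 PA + C3G libraries (points), with the mean and SD of each group as the bar beside them. Sqstm1 lies at 291 to 298 FPKM in the BSA libraries, 524 to 569 in the PA libraries and 444 to 477 in the PA + C3G libraries, while the points of Tfeb overlap in all groups.

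PA was compared with BSA to ask which transcripts of the pathway moved with the fatty acid. Sqstm1, Map1lc3b and Gabarapl1, the genes of the cargo receptor and of the ATG8 proteins, rose, and Ulk1 and Becn1, which act at initiation and nucleation, fell. Atg5, Atg7, Atg9a, Wipi1 and Tfeb did not pass the test. The 5 of 10 genes called compare with 51% of all tested genes in the same comparison, where 25.8% were higher and 25.2% lower. The FPKM of the groups did not overlap for 5 of the 10, the same genes, against 59.9% of all tested genes. The share of genes called was thus near the background. The median log2 fold change of the 10 was 0.04, beside 0.00 over all tested genes. None of the 10 passed the study's criterion of a fold change above 2 with an unadjusted p under 0.05, which 7.56% of tested genes met. In the edgeR fit 5 of the 10 had an unadjusted p under 0.05, and DESeq2 and limma each called 5 at an adjusted p under 0.05.

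Sqstm1 encodes p62, which binds ubiquitinated cargo and the ATG8 proteins. Its level was 298, 293 and 291 FPKM in the BSA libraries and 569, 524 and 561 FPKM in the PA libraries. The PA libraries were all far above the BSA libraries, whose spread was narrow at a coefficient of variation of 1.21%. Sqstm1 rose 1.91-fold, with a log2 fold change of 0.93 (SE 0.04, adjusted p = 1.18e-07), at the 95.7 percentile of all log2 fold changes in that comparison. Its gene, ENSRNOG00000003147, lies at 35704730 to 35716294 on the minus strand of chromosome 10 in the authors' table, whose genome build is not given in the sources used here. It overlaps Mrnip on the opposite strand by 47 bases. Mrnip averaged 6.82, 4.94 and 4.46 FPKM in the BSA, PA and PA + C3G groups, far below Sqstm1. The libraries were made to mark the strand, but the strand setting of the counting is not given in the sources used here, so reads of the overlap cannot be told apart.

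Map1lc3b encodes LC3B, the ATG8 protein most used to follow autophagosomes. It was measured at 14.0, 14.1 and 14.9 FPKM in the BSA libraries and at 18.4, 24.1 and 21.2 FPKM in the PA libraries. Every PA library was above every BSA library, but the PA libraries were widely spread, with a coefficient of variation of 13.3%. The log2 fold change was 0.59 (SE 0.12, adjusted p = 0.00244), a 1.51-fold rise. A near copy, AABR07026424, which the table describes as an LC3 beta 2 gene, averaged 0.627, 0.943 and 0.815 FPKM in the BSA, PA and PA + C3G groups, and the counting could have divided reads between them. Map1lc3b, ENSRNOG00000017905, is placed on chromosome 19 from 53629779 to 53646058 on the plus strand.

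Gabarapl1 encodes another ATG8 protein, of the GABARAP branch. The BSA libraries stood at 116, 128 and 114 FPKM and the PA libraries at 150.4, 151 and 156 FPKM. All PA values lay above all BSA values. Gabarapl1 rose by a log2 fold change of 0.38 (SE 0.05, adjusted p = 0.00013). Gabarapl1, ENSRNOG00000053362, is on chromosome 4 from 163293724 to 163302858 on the plus strand.

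Ulk1 encodes the kinase that starts autophagosome formation and was the most even of the 10 genes within the BSA group. In the BSA libraries it was present at 34.7, 35.0 and 34.3 FPKM, and in the PA libraries at 29.5, 28.0 and 28.0 FPKM. The groups were separate, with every PA library lower. Ulk1 fell by 0.26 on the log2 scale (SE 0.03, adjusted p = 0.000167), a level 1.20-fold lower. Ulk1, ENSRNOG00000037505, lies on chromosome 12 from 51908448 to 51934702 on the plus strand.

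Becn1 encodes beclin 1, the subunit around which the class III phosphatidylinositol 3-kinase assembles. Values were 27.0, 24.4 and 26.0 FPKM with BSA and 20.6, 21.5 and 22.0 FPKM with PA. No library of one group reached the other. Becn1 fell by 0.25 on the log2 scale (SE 0.05, adjusted p = 0.00339), 1.19-fold. Becn1, ENSRNOG00000020513, is found on chromosome 10 from 89209940 to 89225297 on the minus strand.

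Atg5 and Atg7 belong to the conjugation machinery, ATG7 as the activating enzyme and ATG5 as the partner of ATG12. Atg5 had 9.08, 9.83 and 9.51 FPKM in the BSA libraries and 11.9, 10.7 and 8.86 FPKM in the PA libraries. The PA libraries straddled the BSA range, with PA replicate 3 below it. The log2 fold change of 0.17 (95% interval −0.07 to 0.41, adjusted p = 0.208) did not pass the test. Without PA replicate 3 it was 0.28 and passed, at an adjusted p of 0.0288. For Atg7 the BSA libraries gave 6.56, 6.68 and 5.81 FPKM and the PA libraries 5.90, 5.76 and 5.59 FPKM. BSA replicate 3 fell within the PA range. Its log2 fold change was −0.12 (95% interval −0.29 to 0.05, adjusted p = 0.225). Atg5, ENSRNOG00000000322, spans chromosome 20 from 49318308 to 49393140 on the plus strand, and Atg7, ENSRNOG00000007486, spans chromosome 4 from 146598413 to 146777124 on the plus strand.

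Atg9a encodes the transmembrane scramblase whose vesicles seed the autophagosome. Its FPKM was 14.8, 16.4 and 15.2 with BSA and 15.9, 16.9 and 15.7 with PA. The groups overlapped, and the log2 fold change was 0.09 (95% interval −0.03 to 0.21, adjusted p = 0.202). The gene, ENSRNOG00000018975, at 82382800 to 82393382 on the minus strand of chromosome 9, overlaps another gene of the same strand, AABR07068084, by 80 bases.

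Wipi1, whose product binds PI3P on the growing membrane, was at 37.3, 30.1 and 33.5 FPKM in the BSA libraries and at 32.4, 28.8 and 32.5 FPKM in the PA libraries. The groups overlapped, and the log2 fold change of −0.08 (95% interval −0.27 to 0.11, adjusted p = 0.448) did not pass the test.

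Tfeb, the transcription factor, gave 15.7, 17.4 and 16.4 FPKM with BSA and 16.8, 16.5 and 14.9 FPKM with PA. The libraries were interleaved. The log2 fold change was −0.01 (SE 0.07, adjusted p = 0.903), with a 95% interval of −0.17 to 0.15. The value was 0.02 when every library was rescaled to the same FPKM sum (TPM scaling), 0.02 without BSA replicate 2 and 0.04 without PA replicate 3, and none of these passed the test. Tfeb, ENSRNOG00000014666, is annotated on chromosome 9 from 15207822 to 15214596 on the minus strand.

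**Figure D2:**
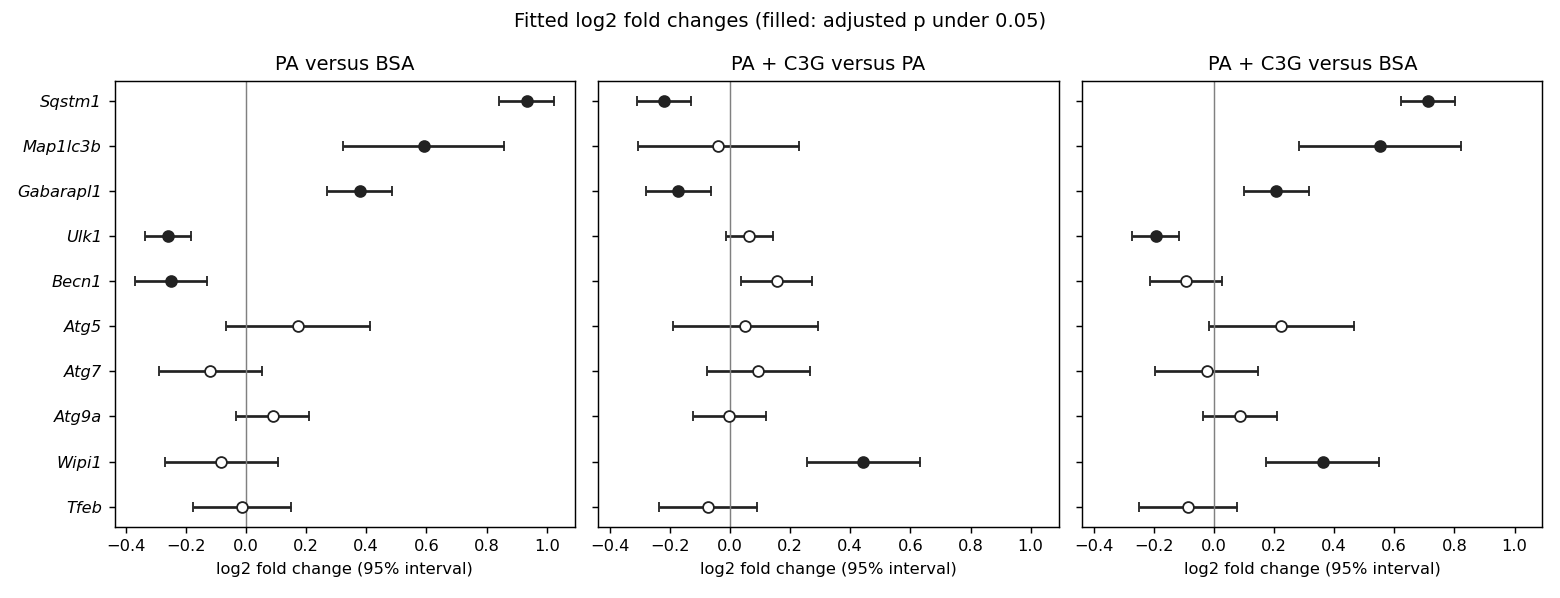
Fitted log2 fold change of each of the 10 genes (points) with its 95% interval (bars) for PA versus BSA, PA + C3G versus PA and PA + C3G versus BSA, where filled points had an adjusted p under 0.05. Sqstm1 has the largest difference with PA, 0.93, and Wipi1 the largest between PA + C3G and PA, 0.44.

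PA + C3G was compared with PA to ask which transcripts differed when the anthocyanin was present. Wipi1 rose, and Sqstm1 and Gabarapl1 fell. Map1lc3b, Ulk1, Becn1, Atg5, Atg7, Atg9a and Tfeb did not pass the test. These 3 of 10 genes compare with 21.2% of all tested genes, of which 11.1% were higher and 10.2% lower. Across all tested genes 1436 were higher and 1316 lower, so that 52.2% of calls were higher. The scaling changed that split. There were 775 higher and 2525 lower (23.5% higher) under TPM scaling and 1065 higher and 1636 lower (39.4% higher) with limma on log2(FPKM + 1). The directions of the 3 called genes were the same under each of these. The median log2 fold change of the 10 genes was 0.02, beside −0.00 over all tested genes. For 5 of the 10 the groups did not overlap, against 39.5% of tested genes. None of the 10 passed a fold change above 2 with an unadjusted p under 0.05, which 1.13% of tested genes did. By edgeR 4 of the 10 had an unadjusted p under 0.05, and DESeq2 and limma each called 3. This comparison shares the PA libraries with the one above, so that a PA library that stood high would push the 2 differences in opposite directions.

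Wipi1 was measured at 44.8, 39.1 and 40.3 FPKM in the PA + C3G libraries, against 32.4, 28.8 and 32.5 FPKM in the PA libraries. All PA + C3G libraries were above all PA libraries and also above the BSA libraries. Its log2 fold change of 0.44 (SE 0.08, adjusted p = 0.006), a 1.36-fold rise, was at the 93.9 percentile of all genes. Wipi1, ENSRNOG00000003827, lies at 97859727 to 97896525 on the minus strand of chromosome 10 and overlaps Arsg, on the opposite strand, by 3585 bases. Arsg averaged 16.0 ± 1.67, 14.8 ± 1.22 and 21.1 ± 1.78 FPKM (SD, n = 3) in the BSA, PA and PA + C3G groups. It rose with Wipi1, by a log2 fold change of 0.55 (adjusted p = 0.00285), and its part in the Wipi1 value was not tested.

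Sqstm1 was at 477, 444 and 462 FPKM in the PA + C3G libraries. These were lower than all PA libraries and higher than all BSA libraries. The gene fell by 0.22 on the log2 scale (SE 0.04, adjusted p = 0.0048), or 1.17-fold. Measured against BSA, it was still 1.64-fold higher.

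Gabarapl1 gave 133, 127 and 135 FPKM in the PA + C3G libraries. All were below the PA libraries, while PA + C3G replicate 2 was just under the highest BSA library. It fell by 0.17 on the log2 scale (SE 0.05, adjusted p = 0.0325). This call was lost without any 1 of the 6 libraries compared, with adjusted p from 0.0587 without PA + C3G replicate 3 to 0.108 without PA replicate 3. In between were 0.0614 without PA replicate 1, 0.0702 without PA replicate 2, 0.062 without PA + C3G replicate 1 and 0.092 without PA + C3G replicate 2. The log2 fold change in these fits stayed between −0.19 and −0.15.

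Becn1, at 24.6, 22.5 and 22.4 FPKM with PA + C3G, had a mean between those of the other groups. Every PA + C3G library was above every PA library, by a narrow margin. The log2 fold change of 0.15 (95% interval 0.04 to 0.27, adjusted p = 0.0681) missed the threshold after adjustment.

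Map1lc3b was at 23.1, 20.1 and 17.3 FPKM with PA + C3G. These libraries covered nearly the same range as the PA libraries. Its difference was −0.04 (95% interval −0.31 to 0.23, adjusted p = 0.854) on the log2 scale. This interval covers the values of both Sqstm1 and Gabarapl1 in the same comparison.

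Ulk1 had 28.5, 29.2 and 29.4 FPKM in the PA + C3G libraries, all within the PA range. The log2 fold change was 0.06 (95% interval −0.01 to 0.14, adjusted p = 0.22).

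Of the remaining genes, Atg5 was at 10.4, 10.2 and 11.2 FPKM with PA + C3G, with a log2 fold change of 0.05 (95% interval −0.19 to 0.29, adjusted p = 0.783). Atg7 was at 6.10, 5.95 and 5.91 FPKM, with 0.09 (95% interval −0.08 to 0.27, adjusted p = 0.424). The Atg7 libraries were just above the PA libraries, whereas those of Atg5 lay within the PA range. Atg9a was at 15.1, 16.1 and 16.0 FPKM, with −0.00 (95% interval −0.12 to 0.12, adjusted p = 0.987). Tfeb had 14.7, 16.0 and 14.0 FPKM, with −0.07 (95% interval −0.24 to 0.09, adjusted p = 0.526). The Atg9a and Tfeb libraries overlapped those of the PA group.

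The third comparison, PA + C3G with BSA, asks how far the cells given both stood from the control. Sqstm1, Map1lc3b, Gabarapl1 and Wipi1 were higher and Ulk1 was lower. The 5 of 10 genes called compare with 36.9% of all tested genes, of which 19% were higher and 17.9% lower. The higher share of all calls was 51.5%, against 38.4% (1891 higher, 3038 lower) under TPM scaling and 37.4% (1850 higher, 3091 lower) with limma on log2(FPKM + 1). Libraries of the groups were separate for 5 of the 10, against 50.3% of tested genes. The median log2 fold change of the 10 was 0.15, beside 0.01 over all tested genes. A fold change above 2 with an unadjusted p under 0.05 was met by none of the 10 and by 4.63% of tested genes. By edgeR 5 of the 10 had an unadjusted p under 0.05, and DESeq2 and limma each called 5.

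Against BSA, Sqstm1 had a log2 fold change of 0.71 (SE 0.04, adjusted p = 1.23e-06) and Map1lc3b one of 0.55 (SE 0.12, adjusted p = 0.00544). Gabarapl1 had 0.21 (SE 0.05, adjusted p = 0.0079), with overlapping groups. Wipi1, which had not passed the test with PA alone, had 0.36 (SE 0.08, adjusted p = 0.00778). Ulk1 was lower, at −0.19 (SE 0.03, adjusted p = 0.00176). Becn1 was at −0.09 (95% interval −0.21 to 0.03, adjusted p = 0.205) and passed only under TPM scaling, at −0.15 and an adjusted p of 0.0496. Atg5 was at 0.22 (95% interval −0.02 to 0.47, adjusted p = 0.133), with every PA + C3G library above every BSA library. Atg7 (−0.02), Atg9a (0.09) and Tfeb (−0.09) did not pass the test on the log2 scale.

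Map1lc3b and Gabarapl1 are 2 of 5 ATG8 family genes described here, which differ widely in level. The near copy AABR07026424 is not counted in the family or its sum. Gabarap, at 238 ± 3.26 FPKM (SD, n = 3) in the BSA group, held 52.4% of the family's summed FPKM, Gabarapl1 held 26.3%, Gabarapl2 11.0%, Map1lc3a 7.28% and Map1lc3b only 3.16%. The family sum was 454 ± 11.9 FPKM with BSA, 591 ± 14.9 with PA and 568 ± 16.9 with PA + C3G. Most of the higher sum came from Gabarap, which rose with PA to 338 ± 9.65 FPKM (log2 fold change 0.53, adjusted p = 3.13e-06) and was at 332 ± 13.2 FPKM with PA + C3G. Gabarapl2 moved the other way. It fell by 0.27 on the log2 scale with PA (adjusted p = 0.000263) and was higher by 0.30 with PA + C3G than with PA (adjusted p = 0.00099). Its share of the sum was 6.84% with PA and 8.53% with PA + C3G. Map1lc3a rose with PA by 0.26 (adjusted p = 0.0279), with overlapping libraries. The Map1lc3b share was 3.60% with PA and 3.54% with PA + C3G. Relative to the ATG8 sum, Sqstm1 stood at an FPKM ratio of 0.647 ± 0.0205 with BSA, 0.932 ± 0.0265 with PA and 0.811 ± 0.0182 with PA + C3G. This ratio did not overlap between any of the groups. The ratio of Sqstm1 to Map1lc3b alone was 20.5 ± 0.923, 26.3 ± 4.55 and 23.2 ± 3.20, and the PA + C3G libraries overlapped both other groups.

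**Figure D3:**
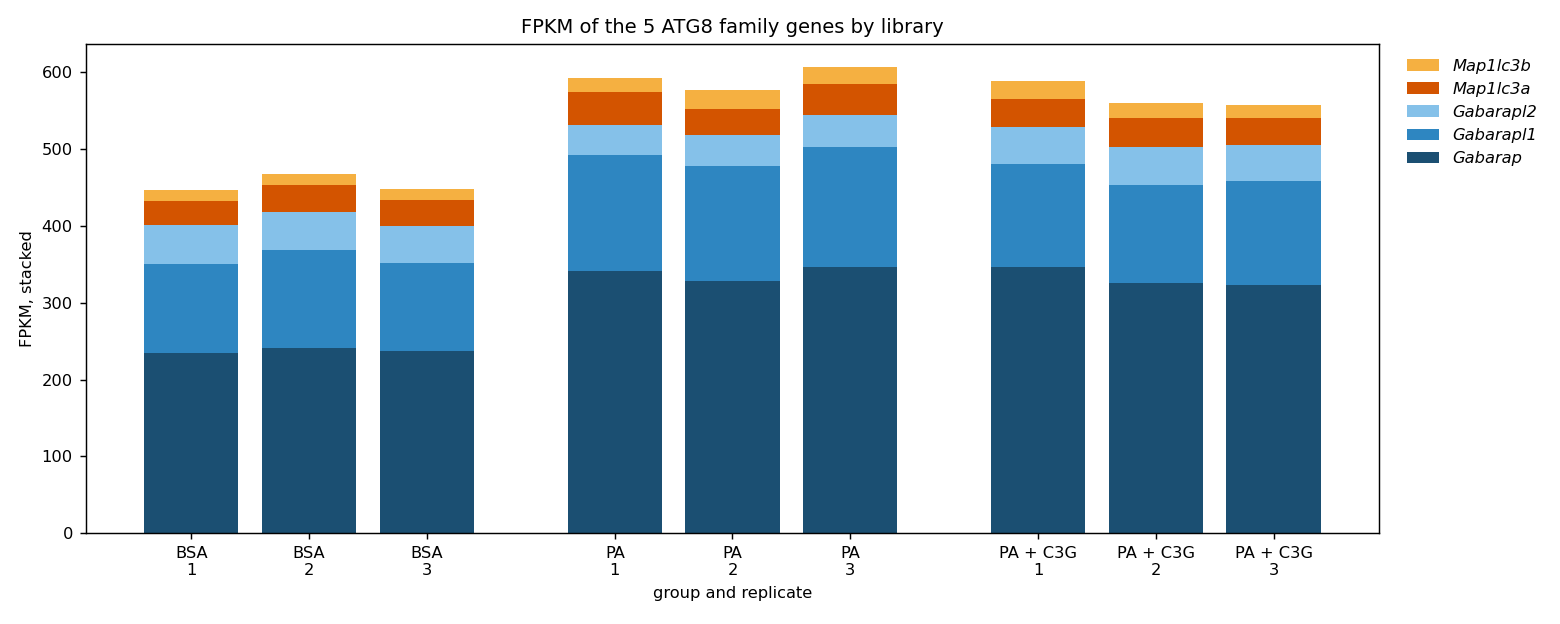
Stacked FPKM of the 5 ATG8 family genes in each of the 9 libraries, from 0 on the y axis. Gabarap is the largest part of each bar and Map1lc3b the smallest, and the group means of the bar heights are 454 FPKM with BSA, 591 with PA and 568 with PA + C3G.

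The other genes of the pathway were taken as 100 genes in 10 lists by role, of which 92 were in the table, and all 92 were tested. With PA, 55 of the 92 were called, 59.8%, of which 44 were higher and 11 lower, against 51% of all tested genes (25.8% higher, 25.2% lower). Their median log2 fold change was 0.16, beside 0.00 over all tested genes. PA + C3G differed from PA at 26 of the 92, or 28.3%, with 8 higher and 18 lower and a median of −0.05. Of all tested genes, 21.2% were called in this comparison, 11.1% higher and 10.2% lower. Under TPM scaling, which set the median of all genes to −0.09 in this comparison, these were 5 higher and 29 lower, and with limma on log2(FPKM + 1) 5 higher and 20 lower. Against BSA, 48 of the 92 differed in the PA + C3G group, 52.2%, with 41 higher and 7 lower, beside 36.9% of all tested genes (19% higher, 17.9% lower). Under TPM scaling this split was 32 to 11, and by limma it was 31 to 12. In the lists described next, counts with PA are to be read against 51% of all tested genes called, and counts in PA + C3G versus PA against 21.2%.

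**Figure D4:**
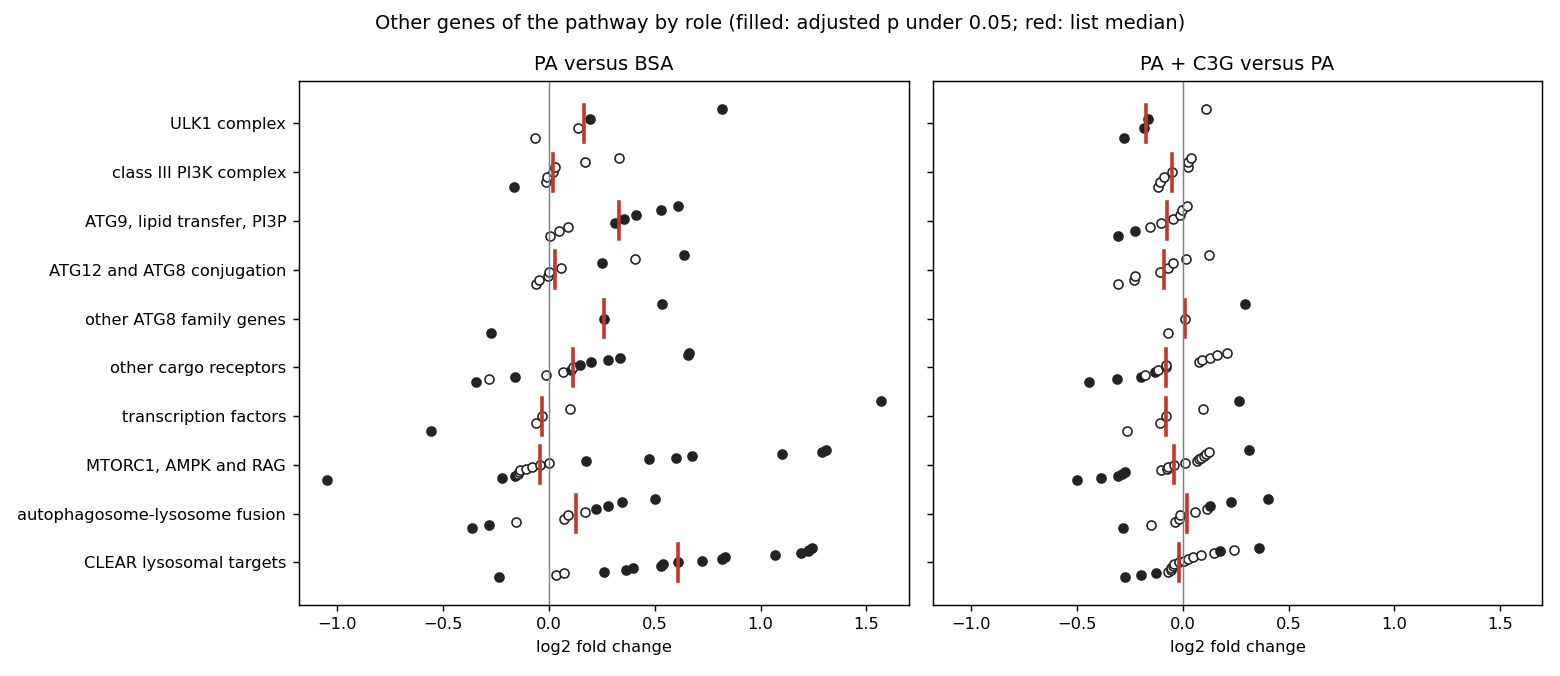
Log2 fold change (x axis) of each of 92 other autophagy and lysosome genes by role (rows) for PA versus BSA and PA + C3G versus PA, with filled points at an adjusted p under 0.05 and a red bar at the list median. The CLEAR lysosomal targets lie furthest to the right with PA, at a median of 0.61, and are centred at −0.02 in PA + C3G versus PA.

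At initiation, 2 of 4 other genes of the ULK1 complex were called with PA, both higher, a share near the 51% of all tested genes called. Atg13, which encodes a regulatory partner of ULK1, rose from 35.1 to 60.8 FPKM (log2 fold change 0.82, adjusted p = 3.9e-07), while Ulk1 itself fell. Ulk2, the paralog of Ulk1, rose by 0.20 (adjusted p = 0.0102). Compared with PA, the PA + C3G group was lower for Atg13 (−0.28, adjusted p = 0.00226), for the scaffold gene Rb1cc1 (−0.18, adjusted p = 0.0483) and for Ulk2 (−0.16, adjusted p = 0.0499). Around Becn1, 1 of 7 other genes of the class III phosphatidylinositol 3-kinase list was called with PA, Ambra1, which fell by 0.17 (adjusted p = 0.00635). None of the 7 differed between PA + C3G and PA by edgeR, with 0 at an unadjusted p under 0.05 and 0 called by DESeq2 and by limma.

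In the list of Atg9a and Wipi1, 5 of 8 other genes were higher with PA and none lower, beside 25.8% and 25.2% of all tested genes. The scramblase genes Tmem41b (0.61, adjusted p = 7.65e-06) and Vmp1 (0.53, adjusted p = 4.98e-05) and the lipid transfer gene Atg2a (0.41, adjusted p = 0.000516) had the largest log2 fold changes. They were followed by Atg2b (0.36, adjusted p = 0.00063) and the PI3P-binding gene Wdr45, a relative of Wipi1 (0.31, adjusted p = 0.0128). Against PA, the PA + C3G group was lower for Vmp1 and Tmem41b, at −0.30 (adjusted p = 0.00629) and −0.23 (adjusted p = 0.0133), whereas Wipi1 was higher. In the list of Atg5 and Atg7, 2 of 8 other conjugation genes rose with PA, Atg16l2 (0.64, adjusted p = 6.76e-05) and Atg3, the gene of the E2-like enzyme for ATG8 (0.25, adjusted p = 0.000967). None of these 8 passed between PA + C3G and PA by edgeR, where 2 had an unadjusted p under 0.05 and DESeq2 and limma each called 1.

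Besides Sqstm1, 9 of 13 other cargo receptor genes were called with PA, 7 higher and 2 lower, beside 25.8% and 25.2% of all tested genes. DESeq2 called 10 of the 13 and limma 7. Calcoco1, an endoplasmic reticulum receptor, rose by 0.66 (adjusted p = 0.000256). Optn, which acts with p62 on ubiquitinated cargo, rose from 8.43 to 13.1 FPKM (0.66, adjusted p = 2.52e-06). Ncoa4, the ferritin receptor, fell (log2 fold change −0.34, adjusted p = 0.00154), as did the mitophagy receptor gene Bnip3l (−0.16, adjusted p = 0.0388). In PA + C3G versus PA, 4 of the 13 were lower and none higher, namely Optn (−0.44, adjusted p = 0.000348), Calcoco1 (−0.31, adjusted p = 0.0425), the mitophagy gene Bnip3 (−0.20, adjusted p = 0.0222) and Nbr1, a receptor related to p62 (−0.13, adjusted p = 0.0134).

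Of 5 other transcription factor genes beside Tfeb, 2 were called with PA. Mitf, a relative of Tfeb, rose by 1.57 (SE 0.41, adjusted p = 0.00972), from a low level of 0.495 to 1.45 FPKM. It was at 1.17 FPKM with PA + C3G, so it passed the filter of 1 FPKM only through the groups where it was high. A gene as low in the PA and PA + C3G groups could have been left out, so this call is a description. Its PA libraries were widely spread, at 0.653, 1.95 and 1.73 FPKM, and PA replicate 1 was close to the highest BSA library, at 0.533 FPKM. Foxo1 fell from 23.0 to 15.4 FPKM (−0.56, adjusted p = 1.67e-05) and was higher with PA + C3G than with PA, at 18.0 FPKM (0.26, adjusted p = 0.00732).

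Genes of the MTORC1, AMPK and RAG axis, which controls ULK1 and the location of TFEB had 10 of 17 members called with PA, 7 higher and 3 lower, beside 25.8% and 25.2% of all tested genes. The median log2 fold change of this list was −0.04, and 7 members were not called. Flcn encodes folliculin, which acts on RagC and RagD together with FNIP2. Flcn was at 20.2, 22.1 and 20.9 FPKM in the BSA libraries, 50.7, 51.2 and 52.1 FPKM in the PA libraries, and 39.6, 42.0 and 41.5 FPKM in the PA + C3G libraries. The groups were fully separate, with PA + C3G between the others. Its log2 fold change was 1.31 (SE 0.04, adjusted p = 3.21e-08) with PA and −0.29 (SE 0.04, adjusted p = 0.0019) between PA + C3G and PA. Rragd, the gene of RagD, had mean levels of 15.8, 37.9 and 28.3 FPKM in the BSA, PA and PA + C3G groups, with log2 fold changes of 1.29 (adjusted p = 4.48e-07) and −0.39 (adjusted p = 0.00453). Fnip2 had 11.8, 24.9 and 17.2 FPKM, with 1.10 (adjusted p = 8.23e-07) and −0.50 (adjusted p = 0.000986). Rragc, for RagC, had 36.9, 57.8 and 45.5 FPKM, with 0.67 (adjusted p = 1.55e-06) and −0.31 (adjusted p = 0.00168). In each of these 4 genes the 3 groups did not overlap. They were named for the size of their called changes, which makes such separation likely, so it is a description only. Of all tested genes, 59.9% did not overlap in PA versus BSA, 39.5% in PA + C3G versus PA and 50.3% in PA + C3G versus BSA. Rraga, another RAG gene of the list, averaged 32.6, 32.1 and 33.6 FPKM. It was not called with PA or in PA + C3G versus PA. Sesn2, a leucine sensor gene, was the 1 member of the list that was higher with PA + C3G than with PA, at 0.31 (adjusted p = 0.00999). Prkaa2, an AMPK catalytic subunit gene, fell with PA from 34.7 to 16.5 FPKM (−1.05, adjusted p = 4.75e-07) and was at 15.0 FPKM with PA + C3G. The other genes of the list that fell with PA were Rptor, for the MTORC1 subunit raptor (−0.22, adjusted p = 0.00249), and Rheb, for the GTPase that activates MTORC1 (−0.16, adjusted p = 0.0148). Tsc1, for the inhibitor of that GTPase, rose with PA (0.47, adjusted p = 0.000211) and was lower in the PA + C3G group than with PA (−0.27, adjusted p = 0.0161).

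**Figure D5:**
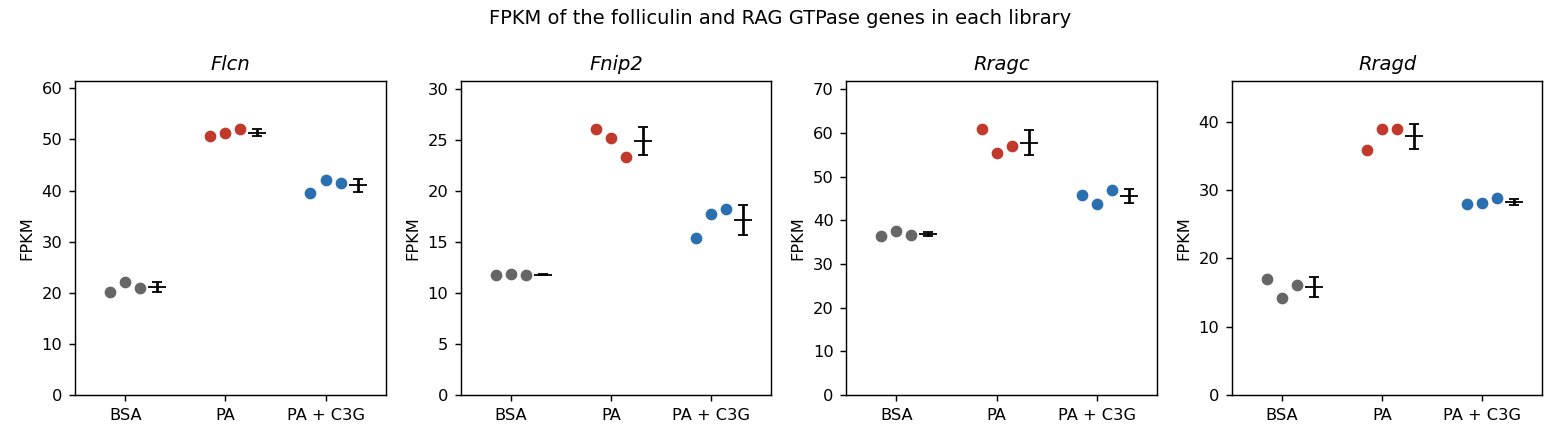
FPKM (y axis, from 0) of Flcn, Fnip2, Rragc and Rragd in each library of the BSA, PA and PA + C3G groups (points), with group mean and SD. In every panel the PA + C3G libraries lie between the BSA and PA libraries without overlap, for example at 39.6 to 42.0 FPKM for Flcn against 20.2 to 22.1 and 50.7 to 52.1.

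At the last steps, 6 of 10 genes for fusion with the lysosome were called with PA, 4 higher and 2 lower, a share near the 51% of all tested genes. The SNARE gene Stx17 rose by 0.50 (adjusted p = 0.000797), the tether gene Epg5 by 0.35 (adjusted p = 0.000428), the GTPase gene Rab7a by 0.28 (adjusted p = 0.000109) and the HOPS complex gene Vps41 by 0.22 (adjusted p = 0.000478). The adaptor gene Plekhm1 (−0.37, adjusted p = 0.000466) and the HOPS gene Vps39 (−0.28, adjusted p = 4.58e-05) fell. Relative to PA, PA + C3G was higher for the SNARE gene Vamp8 (0.40, adjusted p = 0.00887), for Plekhm1 (0.23, adjusted p = 0.0192) and for Vps39 (0.13, adjusted p = 0.0171), and lower for Epg5 (−0.28, adjusted p = 0.00577). These 4 calls by edgeR were also 4 by DESeq2 but 2 by limma.

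The lysosomal genes known as CLEAR targets of TFEB had the highest median of the 10 lists with PA. With PA, 14 of 17 were higher and 1 lower, beside 25.8% and 25.2% of all tested genes, and their median log2 fold change was 0.61. The lysosomal membrane gene Lamp2 (101 to 234 FPKM, log2 fold change 1.24, adjusted p = 6.11e-08) and the sialidase gene Neu1 (16.7 to 38.4 FPKM, 1.22, adjusted p = 1.8e-06) were among those that rose. The proton pump gene Atp6v1h was the 1 that fell (−0.24, adjusted p = 0.00157). Tfeb mRNA, in the same libraries, had the log2 fold change of −0.01 given above. With PA + C3G, 15 of 17 were higher than with BSA and none lower, beside 19% and 17.9% of all tested genes. Between PA + C3G and PA, 5 of 17 were called, 29.4% beside 21.2% of all tested genes, with 2 higher and 3 lower. Atp6v1h was higher (0.17, adjusted p = 0.0218). The chloride transporter gene Clcn7 (−0.20, adjusted p = 0.00929) and the proton pump gene Atp6v0d1 (−0.12, adjusted p = 0.0387) were lower. The part of TFEB protein, its location or its relatives in these values was not measured.

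The genes most like Sqstm1 across the 9 libraries, by Pearson's r of log2(FPKM + 1) among tested genes with an FPKM of at least 1 in every library, were Smim14, Tmed9, Erp44, Tmbim6 and Sec61a1, each with r = 0.997. Smim14 averaged 60.3, 172 and 132 FPKM in the BSA, PA and PA + C3G groups, and the other 4 had the same order of groups. For Tfeb, whose range is narrow, the closest were Rpap2 (r = 0.940), Mosmo (r = 0.925), Pdcd6 (r = 0.918), Med18 (r = 0.909) and Pigq (r = 0.881). These coefficients are descriptions. The 9 libraries are 3 groups of 3, so r for Sqstm1 follows mainly the order of the 3 group means.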

How the data were processed

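INS-1E cells of the BSA, PA and PA + C3G groups, 3 libraries each, were grouped by the sample titles. The study extracted RNA with Trizol, selected polyadenylated RNA, and made strand-marked paired-end libraries. The submitters' processing notes name cutadapt 1.9, HISAT2 2.0.4, StringTie 1.3.4d, DESeq2 and edgeR without roles, and the genome build is not given in the sources used here. The authors deposited estimated counts per gene, without normalization, and FPKM, scaled to gene length and library size. The deposited counts are whole numbers, and low values pile up at multiples of 4, with 2040, 4044 and 1276 values over genes and libraries at 3, 4 and 5 counts. Counts may thus overstate the number of fragments, so counts divided by 4 were tried as an alternative.

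The counts were used as deposited, with TMM normalization and edgeR 4.0.16 in R 4.3.3 (glmQLFit and glmQLFTest, all 9 libraries, 1 mean per group). Genes averaging an FPKM of 1 or more were tested, and p-values were adjusted by Benjamini-Hochberg over the 12958 genes at a threshold of 0.05. SE is the absolute log2 fold change divided by the square root of F, and intervals are at 95%. As alternatives, the fit was repeated with DESeq2 1.42.0, with median-ratio size factors, with TPM scaling, without the filter, with a minimum mean FPKM of 5, on the compared groups alone, with the replicate number as a block, with limma 3.58.1 on log2(FPKM + 1) and log2(FPKM + 0.1), and without each library in turn. The procedure was tested on simulated counts in which few genes changed, as many up as down. In the data 51% of tested genes were called with PA, so the simulation cannot test the scaling under such broad change. The genes and the role lists were chosen with earlier results of these data known, so list counts are descriptions. Named from each list were up to 3 called genes per comparison with the largest absolute log2 fold change and, where 5 or fewer genes of a list were called in 1 direction, those genes. Some genes so chosen are not reported here. Promoters came from RefSeq, and other measurements of the study are not analysed here.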

Additional observations from a re-analysis of the deposited data

How the results depend on the processing

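The 30 log2 fold changes of the 10 genes were recomputed under 19 alternatives each. Of these 570 values, 551 kept both direction and side of the threshold, 6 lost the call, 2 gained it and 11 changed sign, all 11 among differences that were not called. Of the 13 called differences, 12 kept their call under every alternative run. The exception was Gabarapl1 in PA + C3G versus PA, as given with its values. Under TPM scaling the sign changed for Tfeb in PA versus BSA (0.0178) and for Ulk1 (−0.0243) and Atg5 (−0.0371) in PA + C3G versus PA. Leaving out 1 library gave values of both signs, on the log2 scale, for 5 differences. In PA versus BSA, Tfeb ranged from −0.0569 to 0.0418. In PA + C3G versus PA, Map1lc3b ranged from −0.152 to 0.0654, Atg5 from −0.0596 to 0.149 and Atg9a from −0.0249 to 0.0344. In PA + C3G versus BSA, Atg7 ranged from −0.0928 to 0.00435. The cause was not tested. The number of the 10 genes called ranged from 5 to 6 for PA versus BSA, 2 to 3 for PA + C3G versus PA and 5 to 6 for PA + C3G versus BSA. Over all tested genes, leaving out 1 library gave 1718 to 2838 calls for PA + C3G versus PA, the lowest without PA replicate 3.

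With the replicate number as a block, 5, 3 and 5 of the 10 genes were called in PA versus BSA, PA + C3G versus PA and PA + C3G versus BSA. Over all tested genes there were 6843, 3118 and 5058 calls, against 6614, 2752 and 4783 without the block. Deviations from the group means correlated at −0.0473 to 0.105 between libraries of the same number, and most of these values were positive. Between libraries of different numbers they correlated at −0.137 to 0.113, and most values were negative. The deviations of a group cancel for each gene, which ties the signs of both sets, so the second is no separate observation. The labels give only a number, and whether libraries of the same number share a batch was not tested.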
